A study of Oncorhynchus mykiss with 6 samples.

Results

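The red cell microRNAs miR-451 and miR-144 were examined in small RNA libraries from rainbow trout skin. Their entries were taken by name: every entry named miR-451 or miR-144, whatever its species prefix, arm or length suffix. This gave 7 of the 1426 entries, or 5 of the 1280 distinct sequences, with 3 entries for miR-451 and 4 for miR-144. The study sequenced dorsal skin of yellow mutant fish (YR_S, yellow skin) and wild-type fish (WR_S, black skin) to look for RNA differences that bear on skin immunity. Each group had 3 libraries, and each library came from the skin of 1 fish at 12 months post hatching. All fish were female and shared 1 pond. No gene is named for the yellow mutation in the labels, and the sources used here describe no step that removes blood from the skin.

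In vertebrates the 2 miRNAs are cut from 1 primary transcript, which the erythroid factor GATA1 switches on, so both are found mainly in cells of the red lineage. The precursor of miR-451 is too short for Dicer. It is sliced by Ago2 and trimmed at its 3′ end, as shown in zebrafish and mouse, and miR-451 is needed for red cells to mature in zebrafish. The precursor of miR-144 is cut by Dicer into a 5p and a 3p strand, of which the 3p strand is usually the one kept in human and mouse, and in zebrafish miR-144 acts on globin expression. Fish red cells keep their nucleus.

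The 5 sequences are shown because the entry names differ from what was sequenced, and because the arms of miR-144 are compared later. Bases 2 to 8, the seed that pairs with target RNAs, are in capitals. The sequences are written with T for U, as deposited.
miR-451-5p (gmo-miR-451-5p and abu-miR-451_R+1): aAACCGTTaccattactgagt
miR-451-3p (abu-mir-451-p3_1ss6TC): tTTAGCAAtggtaagggttct
miR-144-5p (ssa-miR-144-5p_R-1): gGATATCAtcatatactgtaagt
miR-144-5p, longer form (cfa-mir-144-p5): aGGATATCatcatatactgtaagt
miR-144-3p (ssa-miR-144-3p_R+1 and tni-miR-144_L+1): cTACAGTAtagatgatgtact

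Both miR-451-5p entries held 1 sequence, and its reads had been divided equally between them. The same was true of the pair of miR-144-3p entries. The counts of such a pair were therefore added before levels were compared. The miR-451-5p and miR-451-3p sequences were 21 nt long, so all miR-451 counts lay at 1 length in every library. The sources used here do not say whether reads of other lengths had been merged into an entry. The 2 forms of miR-144-5p shared 23 bases, and the longer form, of 24 nt, carried 1 more base at its 5′ end. That base moves its seed by 1 position. The name of the miR-451-3p entry marks the change T6C, counted from 1 at its 5′ end, and the sequence had the C at position 6. A run of 9 bases in miR-144-3p, TACAGTATA, was complementary to the 5p strand, and a run of 8 bases in miR-451-3p, AATGGTAA, was complementary to miR-451-5p.

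None of the 5 seeds occurred in any other entry of the table, and no other entry shared 12 bases with a member. The miR-144-3p sequence begins with 1 base more than the database form named in tni-miR-144_L+1. With that base taken off, its seed would read ACAGTAT, which also occurred in 0 other entries. The 6 bases ACAGTA stood at positions 2 to 7 of 8 other entries, 6 of which were miR-101, a family with an almost identical seed. The member counts therefore had no near-identical relative in the table with which to exchange reads.

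The libraries held 1442631, 4375641 and 4388665 counts in YR_S replicates 1 to 3, and 5089802, 4477917 and 4567996 in WR_S. YR_S replicate 1 was thus the shallowest, where 3 counts, the limit that a count of 0 allows, came to 1.95 CPM. CPM here are counts per 1000000 after TMM scaling, which corrects the library totals for differences in composition. Skin markers were abundant in each library: the keratinocyte and epithelial families (miR-203, miR-205, miR-200, miR-141, miR-429) summed to between 23186 and 35118 CPM in YR_S and to between 26354 and 36672 CPM in WR_S. WR_S replicate 3 stood apart, with 3404 CPM of the liver miRNA miR-122 against 5.86 to 51.3 CPM in the other 5 libraries, and with the most skeletal muscle miRNA (12616 CPM). The main comparisons of the groups are also given without it.

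Red cell miRNA was present in all 6 skins, at widely different levels from fish to fish and at a similar mean level in the 2 groups. Each of the paired miR-451-5p entries held 102, 485.5 and 207.5 counts in YR_S replicates 1 to 3, and 81.5, 339.5 and 658 in WR_S. Added together and scaled for depth, these were 132.8, 248 and 100.1 CPM in YR_S and 31.4, 144.2 and 279 CPM in WR_S. The lowest and the highest of the 6 values were both wild-type, and the 3 mutant values lay between them. The means were 160 ± 77.5 CPM in YR_S and 151 ± 124 CPM in WR_S (SD, n = 3 each). The highest library of a group exceeded the lowest 2.47-fold in YR_S and 8.88-fold in WR_S. Counting error was small beside this: the exact Poisson 95% interval ran from 26.8 to 36.6 CPM in the lowest library and from 264 to 294 CPM in the highest.

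**Figure D1:**
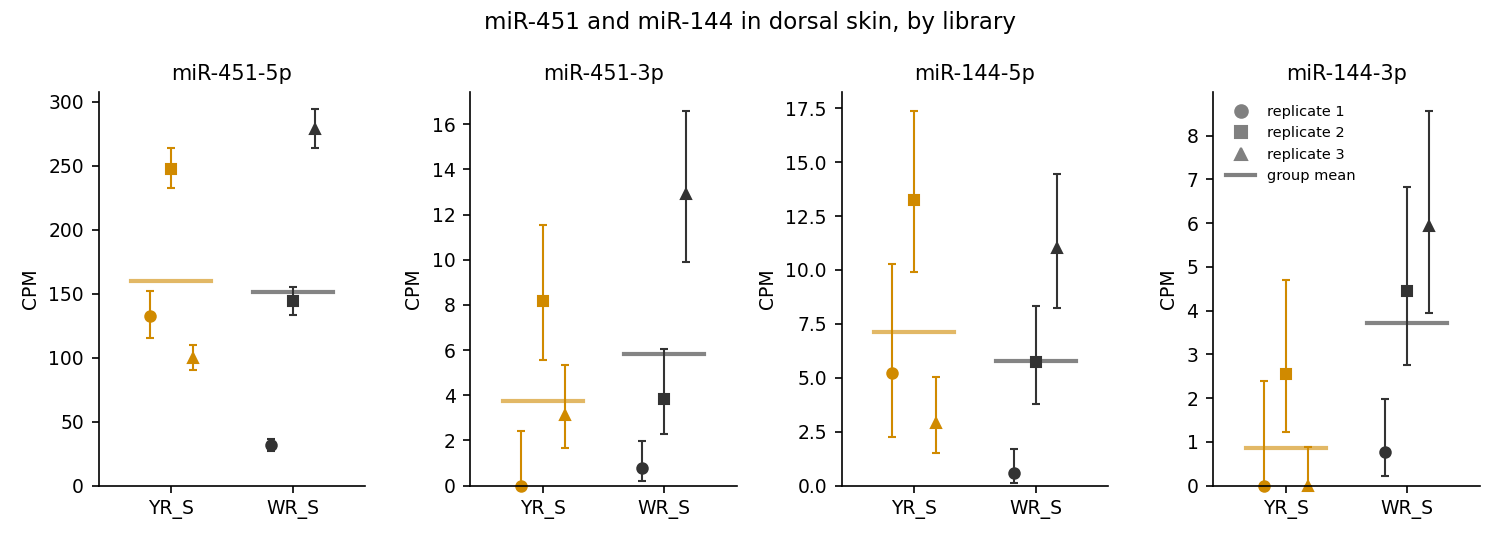
Level of each arm of miR-451 and miR-144 in every library, in counts per 1000000 after TMM scaling (CPM, linear axes from 0), with YR_S left and WR_S right. Points are libraries, error bars are exact Poisson 95% intervals of the count, and lines are group means. For miR-451-5p the YR_S points (100.1 to 248 CPM) lie inside the range of the WR_S points (31.4 to 279 CPM).

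The level of miR-451-5p varied more within a group than that of most other miRNAs above a minimum abundance. The pooled within-group SD of log2(CPM + 1) was 1.22 for miR-451-5p, larger than that of 394 of the 411 distinct sequences averaging at least 10 CPM (95.9%), whose median was 0.40. Within the groups the SD was 0.66 in YR_S and 1.59 in WR_S. By rank, miR-451-5p was sequence 173 of 706 detected, 140 of 909 and 191 of 874 in YR_S replicates 1 to 3, and 285 of 1044, 167 of 991 and 125 of 935 in WR_S. Over the 6 libraries its mean of 155.8 CPM placed it at 163 of 1280, so that it was a moderately abundant miRNA of this tissue.

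The other members were scarce. The strand opposite miR-451-5p, miR-451-3p, had counts of 0, 32 and 13 in YR_S and of 4, 18 and 61 in WR_S, or means of 3.76 ± 4.12 CPM in YR_S and 5.84 ± 6.32 CPM in WR_S (SD, n = 3 each). It made up 0%, 3.19% and 3.04% of the miR-451 counts in YR_S replicates 1 to 3, and 2.40%, 2.58% and 4.43% in WR_S. Taken as 3 counts, the 0 of YR_S replicate 1 allows a share of up to 1.47%, and its exact two-sided 95% interval reached 1.79%. The strand shares of the groups overlapped (exact permutation test over libraries, two-sided, p = 0.6, n = 3 each). The 5p strand was therefore the main product of miR-451 in every library.

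The 5p strand of miR-144 followed the level of miR-451. Its 2 length forms together had counts of 8, 52 and 12 in YR_S and of 3, 27 and 52 in WR_S, which gave means of 7.12 ± 5.44 CPM in YR_S and 5.77 ± 5.22 CPM in WR_S (SD, n = 3 each). The groups overlapped. Nearly all of these counts belonged to the form of 23 nt, which was at 0 in WR_S replicate 1. The longer form was seen only as 2 counts in YR_S replicate 2 and 3 counts in WR_S replicate 1.

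The 3p strand of miR-144 was found in 1 of 3 YR_S libraries and in 3 of 3 WR_S libraries. Its counts were 0, 10 and 0 in YR_S and 4, 21 and 28 in WR_S. On the CPM scale these were 0, 2.55 and 0 in YR_S, and 0.770, 4.46 and 5.93 in WR_S. Taken as 3 counts, the limit of a count of 0 was 1.95 CPM in YR_S replicate 1 and 0.723 CPM in YR_S replicate 3, and the exact two-sided Poisson 95% intervals reached 2.40 and 0.889 CPM. A level like that of WR_S replicate 1 was thus not reliably detectable in YR_S replicate 1. In YR_S replicate 3 it lay between the limits of 0.723 and 0.889 CPM, at the edge of detection. The CPM ranges of the groups overlapped, because the 2.55 CPM of YR_S replicate 2 exceeded the 0.770 CPM of WR_S replicate 1.

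No member differed between YR_S and WR_S in the test across all entries. That test was edgeR's quasi-likelihood test on the 1085 entries that had counts in 3 or more of the 6 libraries, with Benjamini-Hochberg adjustment, and 6 of the 7 member entries were among them. The longer miR-144-5p form was above 0 in 2 libraries and was not tested. The miR-144-3p entries passed this filter with 1 YR_S and 3 WR_S libraries above 0. At an adjusted p below 0.05 edgeR called 0 of the 6 tested members and 0 of all 1085 entries (0%). At an unadjusted p below 0.05 it called 0 of the 6 members and 113 of the 1085 entries (10.4%). Among all entries limma called 0 and DESeq2 called 36 (3.32%) at an adjusted p below 0.05, none of them a member. Each p-value tests the difference between the groups against the spread between the 3 libraries of each group. That spread is estimated for an entry with information from the other entries.

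With all miR-451 entries added together, the log2 fold change of YR_S over WR_S was 0.061 ± 0.69 (SE), with a 95% interval from -1.53 to 1.66 (edgeR, adjusted p = 0.987). The interval thus includes a fold of 0.346 as well as one of 3.15. Without WR_S replicate 3, the library with the high miR-122, the value was 0.72, and without WR_S replicate 1 it was -0.50, both still far from the threshold (edgeR, adjusted p = 0.868 and 0.975). For miR-144-5p the log2 fold change was 0.32 ± 0.93 (SE, edgeR, adjusted p = 0.969), and it was 1.04 without WR_S replicate 3, -0.31 without WR_S replicate 1 and -0.57 without YR_S replicate 2. For miR-144-3p the log2 fold change was -1.93 ± 1.32 (SE), with a 95% interval from -4.98 to 1.12 (edgeR, adjusted p = 0.730), and it was -1.58 without WR_S replicate 3. The direction for miR-451 and for miR-144-5p thus changed with the library left out, whereas that for miR-144-3p stayed negative. In bulk skin, fewer red cells and less of a miRNA per cell cannot be told apart.

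The 2 miRNAs kept the same order over all 6 libraries. Summed miR-451 was 132.8, 255.8 and 103.2 CPM in YR_S replicates 1 to 3 and 32.2, 148 and 292 CPM in WR_S. Summed miR-144 was 5.21, 15.8 and 2.89 CPM in YR_S and 1.35, 10.2 and 16.9 CPM in WR_S. In both miRNAs WR_S replicate 1 was lowest, followed by YR_S replicates 3 and 1, WR_S replicate 2, YR_S replicate 2 and WR_S replicate 3. On the log2(CPM + 1) scale, miR-144 correlated with miR-451-5p with r = 0.94 (exact permutation p = 0.00139, adjusted p = 0.0139 over 10 relations, n = 6 libraries) and rho = 1 (exact permutation p = 0.00278, adjusted p = 0.0278). Without the 2 libraries farthest from the median of miR-451-5p, WR_S replicates 1 and 3, r was 0.93. Within a group there were only 3 libraries, too few for a correlation, but the same order held in each.

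**Figure D2:**
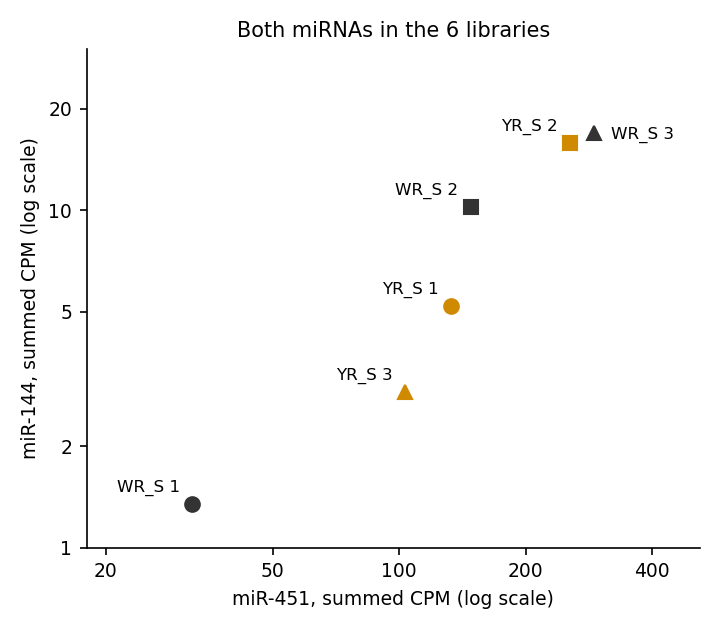
Summed miR-144 against summed miR-451 in the 6 libraries, both in CPM on log axes, with YR_S in yellow and WR_S in dark grey and each library named beside its point. The points rise together, with WR_S replicate 1 lowest (32.2 and 1.35 CPM) and WR_S replicate 3 highest (292 and 16.9 CPM), and the groups are interleaved.

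By strand, miR-144-5p gave r = 0.99 with miR-451-5p (exact permutation p = 0.00417, adjusted p = 0.0208, n = 6 libraries), with rho = 0.94 (exact permutation p = 0.0167, adjusted p = 0.0833). Without the same 2 libraries r was 0.999. For miR-451-3p r was 0.68 and rho 0.83 (exact permutation p = 0.121 and 0.0583, adjusted p = 0.403 and 0.194), and for miR-144-3p r was 0.54 and rho 0.75 (exact permutation p = 0.253 and 0.106, adjusted p = 0.506 and 0.211). These counts included libraries at 0. By r the relation of the 5p strand of miR-144 passed the test, by rho it did not, and those of both 3p strands passed by neither. The difference between the strands was not tested.

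The ratio of the 2 miRNAs varied less than their levels. For every 100 miR-451 counts there were 3.92, 6.18 and 2.80 miR-144 counts in YR_S replicates 1 to 3, and 4.19, 6.89 and 5.81 in WR_S. Over the 6 libraries this spanned a 2.46-fold range, against an 8.88-fold range of miR-451-5p within WR_S alone. The means were 4.30 ± 1.72 in YR_S and 5.63 ± 1.36 in WR_S (SD, n = 3 each), and the groups overlapped (difference in mean log2 ratio -0.43, exact permutation test, two-sided, p = 0.3, where the smallest possible p is 0.1). Without WR_S replicate 3 the difference was -0.40. This ratio does not depend on how the libraries are scaled.

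Split by strand, the ratio did not overlap between the groups for the 3p strand, a comparison added after the data were seen and one that cannot pass the threshold. For every 100 miR-451 counts there were 0, 0.997 and 0 counts of miR-144-3p in YR_S, and 2.40, 3.01 and 2.03 in WR_S. The means were 0.332 ± 0.576 in YR_S and 2.48 ± 0.495 in WR_S (SD, n = 3 each), and every YR_S library lay below every WR_S library. The exact permutation p of 0.1 (two-sided) is the smallest that 3 against 3 libraries can give, so the design cannot reach the threshold of 0.05. How often such a ratio does not overlap for other miRNAs was not determined. The difference in means was -2.15, and -2.37 without WR_S replicate 3. Taken as 3 counts, the counts of 0 allow up to 1.47 in YR_S replicate 1 and up to 0.701 in YR_S replicate 3. Their exact two-sided 95% intervals reached 1.82 and 0.866. The exact 95% interval of YR_S replicate 2, 0.477 to 1.84, overlapped those of WR_S replicate 1 (0.645 to 6.25, from 4 counts) and WR_S replicate 3 (1.35 to 2.95). It ended just below that of WR_S replicate 2 (1.85 to 4.64). For miR-144-5p there were 3.92, 5.18 and 2.80 counts per 100 miR-451 counts in YR_S and 1.80, 3.87 and 3.78 in WR_S, which overlapped (exact permutation p = 0.4). The 2 strands were not tested against each other.

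The strand composition of miR-144 did not overlap between the groups either. It draws on the same miR-144-3p counts as the ratio above, so it is not a separate observation. The 5p strand was 8 of 8, 52 of 62 and 12 of 12 miR-144 counts in YR_S replicates 1 to 3, and 3 of 7, 27 of 48 and 52 of 80 in WR_S. As shares these were 100%, 83.9% and 100% in YR_S and 42.9%, 56.2% and 65% in WR_S. The means were 94.6 ± 9.31% in YR_S and 54.7 ± 11.2% in WR_S (SD, n = 3 each), a difference of 39.9 percentage points (exact permutation test, two-sided, p = 0.1, the smallest possible). Without WR_S replicate 3 the difference was 45.1 percentage points. The exact Clopper-Pearson 95% intervals were wide. They ran from 63.1% to 100% in YR_S replicate 1 and from 9.90% to 81.6% in WR_S replicate 1, and they cover counting error only.

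**Figure D3:**
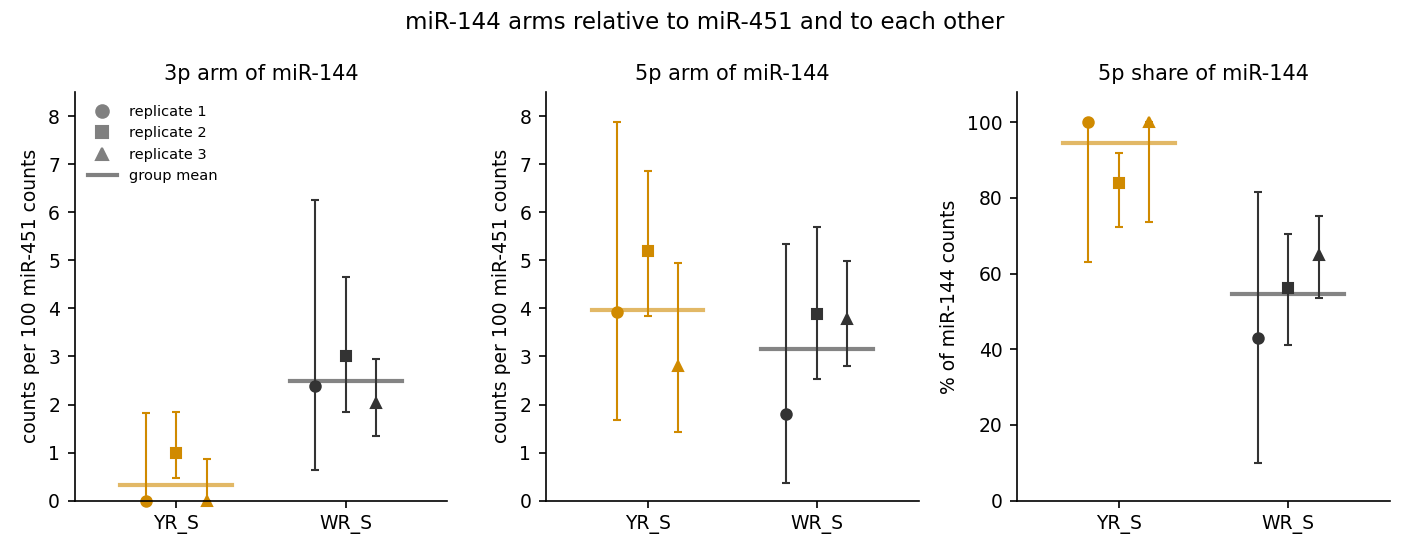
Counts of miR-144-3p and of miR-144-5p per 100 miR-451 counts, and the share of the 5p strand among miR-144 counts in percent, with YR_S left and WR_S right on linear axes from 0. Points are libraries, error bars are exact 95% intervals of the counts and lines are group means. The 5p shares of YR_S (83.9% to 100%) lie above those of WR_S (42.9% to 65%). Intervals of the groups overlap, also between the libraries with the most miR-144 counts of each group, YR_S replicate 2 and WR_S replicate 3.

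Non-overlap of this kind was also found in some other miRNAs. Of the 91 miRNA numbers listed with both arms, 9 had 5p shares that did not overlap between YR_S and WR_S (9.89%), miR-144 among them, and in 7 (7.69%) the share was higher in YR_S. The non-overlap of miR-144 was thus not unusual in itself. Its difference of 39.9 percentage points was the largest of the 91, whose median absolute difference was 0.912 percentage points. It also rested on few counts, 7 in the library with the fewest, and other scarce miRNAs came close to it. The mean 5p share of miR-7792, with 2.5 counts in its lowest library, was 23.1% in YR_S and 63.0% in WR_S, and that of the neural miRNA miR-124, with 4 counts, was 100% in YR_S and 69.0% in WR_S. In both, the groups overlapped, and both were named after their values were seen.

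No marker list of another cell type passed the test for a relation with miR-451-5p, although the endothelial and liver miRNAs had a high rank correlation with it. The red cell list (miR-451, miR-144, miR-486) summed to 138, 271.6 and 106.1 CPM in YR_S and to 33.5, 158 and 308.5 CPM in WR_S, and miR-486, a miRNA abundant in mammalian red cells, had 0 entries in the table. The leukocyte list (miR-142, miR-150, miR-155, miR-223) ranged from 968 to 1550 CPM in YR_S and from 1069 to 1672 CPM in WR_S. Its correlation with miR-451-5p was r = -0.27 (exact permutation p = 0.637, adjusted p = 0.708, n = 6 libraries), with rho = -0.43, and r was -0.48 without WR_S replicates 1 and 3. The library with the least miR-451, WR_S replicate 1, held 1243 CPM of leukocyte miRNA.

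The endothelial miRNA miR-126 summed to 5105, 10205 and 6751 CPM in YR_S and to 6862, 7014 and 7431 CPM in WR_S (r = 0.37 with miR-451-5p, exact permutation p = 0.424, adjusted p = 0.605). Its rho was 0.71 (exact permutation p = 0.136, adjusted p = 0.227), and r was 0.75 without WR_S replicates 1 and 3. It was highest in YR_S replicate 2, which also had the most miR-451 of its group. The skeletal muscle list (miR-1, miR-133, miR-206, miR-499) ranged from 2007 to 4951 CPM in YR_S and from 2806 to 12616 CPM in WR_S (r = 0.44, exact permutation p = 0.407, adjusted p = 0.605). Its rho was 0.54, and r was -0.11 without the same 2 libraries. For the liver miRNA miR-122 r was 0.54 (exact permutation p = 0.246, adjusted p = 0.506) and rho 0.77 (exact permutation p = 0.103, adjusted p = 0.211), and r was 0.77 without those libraries. The 3 libraries with the most miR-451-5p, WR_S replicate 2, YR_S replicate 2 and WR_S replicate 3, also had the most miR-122, in the same order. The 19.5 CPM of miR-122 in WR_S replicate 2 was, however, close to the 18.9 CPM in WR_S replicate 1, which had the least miR-451-5p. For the keratinocyte and epithelial list r was -0.38 (exact permutation p = 0.486, adjusted p = 0.608) and rho -0.029, and r was -0.18 without those libraries. None of these relations passed the test at 6 libraries, and their part in the miR-451 level was not tested.

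The pigment cell list, here miR-204 alone since miR-211 had 0 entries, ranged from 36148 to 39850 CPM in YR_S and from 18657 to 23430 CPM in WR_S. The groups did not overlap in this sum, unlike in the sums of the other marker lists. By entry, other lists leaned to 1 side as well. Of the tested entries, 8 pigment cell entries were higher in YR_S and 0 lower. In the skeletal muscle list 1 was higher and 19 lower, and in the keratinocyte and epithelial list 3 and 28. Over all 1085 entries 514 were higher and 571 lower. In these lists edgeR called 0 entries at an adjusted p below 0.05. The exact permutation p of 0.1 is the smallest that 3 against 3 libraries can give, so this cannot pass the threshold. How often the levels of other miRNAs do not overlap between the groups was not determined. The r of the list with miR-451-5p was 0.033 (exact permutation p = 0.964, adjusted p = 0.964), with rho = -0.37, and r was -0.035 without WR_S replicates 1 and 3. At the most abundant entry, ssa-miR-204-5p, edgeR gave a log2 fold change of 0.87 ± 0.17 (SE, adjusted p = 0.233), which did not pass the threshold either. The paper describes YR_S skin as without melanocytes and with fewer xanthophores than WR_S. What the higher miR-204 sum in YR_S reflects was not tested, and it is not read here as more pigment cells.

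**Figure D4:**
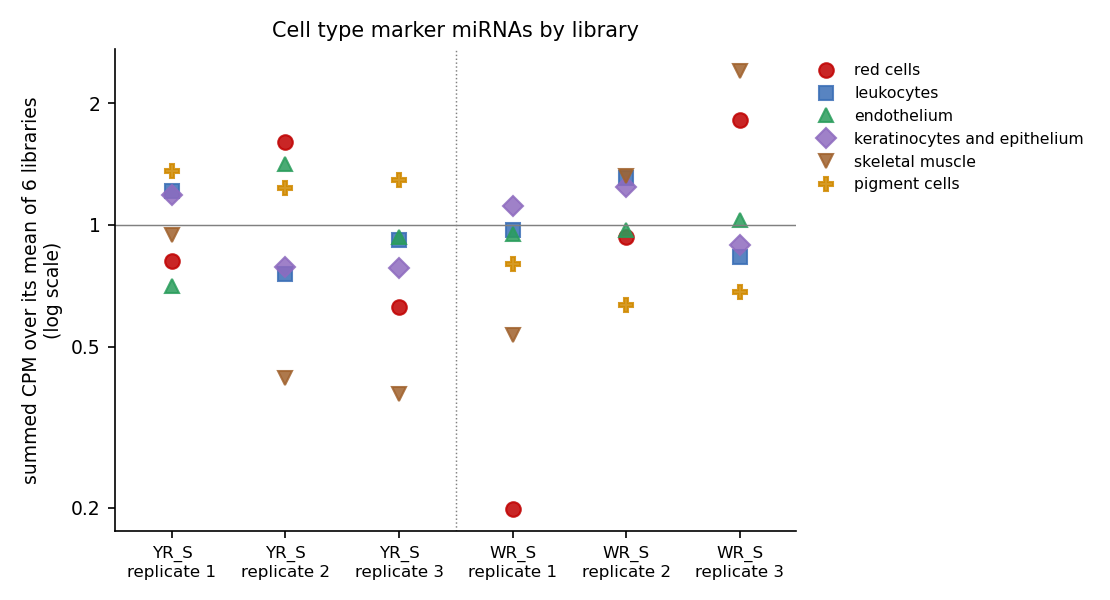
Summed CPM of the marker miRNAs of 6 cell types in every library (liver miR-122, which spread more widely, is not drawn), divided by that list's mean over the 6 libraries (log axis), with YR_S replicates left of the dotted line and WR_S replicates right. The red cell points spread most widely of the 6 lists drawn, with 33.5 CPM in WR_S replicate 1 and 308.5 CPM in WR_S replicate 3. The pigment cell points, which are miR-204 alone, do not overlap between the groups (exact permutation p = 0.1, the smallest possible). How often this holds for other miRNAs was not determined.

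Other miRNAs with a known abundance or role in red cells of vertebrates were read from a second list: miR-486, miR-16, miR-15, miR-92, miR-25, miR-363, miR-22, miR-210, miR-221, miR-222, miR-24 and miR-223. Most of these are made by many cell types. The list had 91 entries, of which 86 were tested, and 0 passed edgeR at an adjusted p below 0.05. Their log2 fold changes were above 0 in 56 and below 0 in 30, with a median of 0.22. Over all 1085 entries, 514 were above 0 and 571 below, with a median of -0.033. Some entries of the list had identical counts, and with these taken once 48 of 69 were above 0 and 21 below. At an unadjusted p below 0.05 there were 5 of the 86, against 113 of all 1085 entries. The median was lower with any 1 library left out (0.021 to 0.18), and lowest, at 0.021, without WR_S replicate 3.

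The 3 most abundant entries of that list, by the rule for named entries, were miR-22, miR-92a and miR-16a. The miR-22 entry oni-miR-22b_R+1 had a mean of 36680 ± 10309 CPM in YR_S and of 31449 ± 668 CPM in WR_S (SD, n = 3 each, edgeR adjusted p = 0.849). The miR-92a entry ssa-miR-92a-3p, from the miR-17-92 family of clusters, had 4937 ± 1293 CPM in YR_S and 4352 ± 408 CPM in WR_S (edgeR, adjusted p = 0.868). The miR-16a entry ssa-miR-16a-5p had 2269 ± 693 CPM in YR_S and 1811 ± 86.1 CPM in WR_S (edgeR, adjusted p = 0.779). In none of them did the means differ beyond the spread between libraries.

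The entries whose pattern over the 6 libraries was most like that of the members were sought among 187 others averaging at least 100 CPM, by Pearson r of log2(CPM + 1). They are given as a description, since with 6 libraries and 187 candidates some high values arise without any relation. The closest to both was ssa-miR-130b-3p_R+1_1ss21AT, with r = 0.94 (rho = 0.94) to summed miR-451 and r = 0.97 to summed miR-144. It varied far less than the members, at 104.5, 130.9 and 104.2 CPM in YR_S and 92.6, 116.4 and 125.6 CPM in WR_S, a 1.41-fold range. Next to miR-451 came ssa-miR-30d-2-3p_R-1_1ss1TC (r = 0.78), gmo-miR-205-5p_R+5 (r = 0.77), gmo-miR-16b-5p_R-1_1ss17TC (r = 0.72) and ola-miR-92a_R+2_2 (r = 0.69). Next to miR-144 came ssa-miR-30d-5p_1ss19AG (r = 0.83), the predicted candidate PC-3p-720_6860 (r = 0.80), ssa-miR-30d-2-3p_R-1_1ss1TC (r = 0.79) and the candidate PC-3p-772_6138 (r = 0.78). The r of ssa-miR-130b-3p_R+1_1ss21AT to both members was about as high as that between summed miR-144 and miR-451-5p, 0.94.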

How the data were processed

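Small RNA from dorsal skin of 3 YR_S and 3 WR_S fish was sequenced, and replicate numbers are those of the labels. The authors removed unwanted reads with ACGT101-miR, matched the rest to miRBase and predicted candidates with Mireap, tools whose settings the sources used here do not give. Per entry and library, the authors deposited an estimated count. Reads shared by entries were divided among these, and 36.8% of values above 0 were fractional. Also deposited were a normalized signal, the log2 ratio of its means and a p-value for each entry. The normalized signal was used only for the limma fits, and the ratio and p-value were not used. A line with no miRNA name (1) was left out.

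Counts were rounded to whole numbers, since edgeR was used. They were scaled by TMM factors estimated on the tested entries before any were summed, also where members were summed. Entries above 0 in at least 3 of 6 libraries were tested with edgeR's quasi-likelihood test (two-sided, Benjamini-Hochberg, threshold 0.05). The SE is the log2 fold change divided by the root of F. Ratios and shares were compared by exact permutation over libraries, and intervals at the 95% level are exact (Poisson, Clopper-Pearson) and cover counting error only. The interval of a ratio is conditional on the sum of its 2 counts. Fold changes are YR_S over WR_S.

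Members averaging at least 10 CPM were given in every library, the others by counts and range. At most the 3 most abundant entries of a list were named, and the 5 entries most like each miRNA among those of at least 100 CPM. The members, lists and tests were chosen with earlier results of these data known. Alternatives were DESeq2, limma at 3 pseudocounts, other scalings and filters, a replicate block, identical sequences taken once, and each library left out. The edgeR fit alone was tested on simulated data, and the permutation tests of ratios and shares were checked only on fixed example values. Tests were run with edgeR 4.0.16, DESeq2 1.42.0 and limma 3.58.1 under R 4.3.3, and with scipy 1.17.1 under Python 3.11.15.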

Additional observations from a re-analysis of the deposited data

How the results depend on the processing

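No member entry was called at an adjusted p below 0.05 by edgeR, limma or DESeq2 in any of 16 alternatives (smallest adjusted p = 0.361). The count over all entries was 0 except with DESeq2, which called 36. For summed miR-451, whose log2 fold change was 0.061, the sign turned with DESeq2 (-0.037), with DESeq2's size factors in edgeR (-0.036), with the total count only (-0.064), with the total count without the members (-0.064), with entries above 0 in at least 1 library (-0.040), with a mean of at least 10 CPM (-0.050), and with TMM factors re-estimated on the summed table (-0.10, added after seeing the data). Leaving out 1 library gave -0.50 to 0.72 for miR-451 (adjusted p between 0.868 and 0.999 over all alternatives), with -0.50 without WR_S replicate 1, -0.067 without WR_S replicate 2 and -0.42 without YR_S replicate 2. It gave -0.57 to 1.04 for miR-144-5p, with -0.31 without WR_S replicate 1 and -0.57 without YR_S replicate 2. It gave -6.92 to -1.40 for miR-144-3p, where the lowest, without YR_S replicate 2, sets WR_S against 2 libraries at 0 and is no bound (edgeR, adjusted p = 0.337, with an unadjusted p below 0.05). The cause of these turns was not tested.

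The log2 ratio of miR-144 to miR-451 (-0.43) was 0.37 with miR-144-5p only and -0.73 to -0.16 with 1 library left out. With miR-144-3p only it has no value, because YR_S replicates 1 and 3 were at 0. The difference in 5p share (39.9 percentage points) was 34.0 to 45.3 with 1 library left out and 26.8 with identical sequences taken once, and the groups did not overlap in any of these. The plain ratio of miR-144-3p to miR-451, added after seeing the data, differed by -2.48 to -1.88 per 100 counts. The median of the second red cell list (0.22) was 0.11 with the total count only and 0.12 with a mean of at least 10 CPM, and 0.021 to 0.18 with 1 library left out. The filter at 10 CPM leaves no miR-144 value.

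Same-numbered libraries deviated together for numbers 1 and 3 (r = 0.24 and 0.33 over 493 entries) but not for number 2 (r = -0.027). Since this did not hold for every number and no label says what a number shares, the numbers were not taken to pair the fish. With the replicate number as a block, edgeR gave log2 fold changes of 0.47 for miR-451 (adjusted p = 0.902), -2.86 for miR-144-3p (adjusted p = 0.597) and 0.59 for miR-144-5p (adjusted p = 0.911), and called 0 entries. The 3p strand of miR-144 rested on few counts, 10 in YR_S and 53 in WR_S in all. It had 0 counts in YR_S replicate 1, the shallowest library, and also 0 in YR_S replicate 3, with a total of 4388665 counts. WR_S replicate 2 had 21 at a total of 4477917. The part of depth in this was not tested.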
